A study of Mus musculus with 10 samples.

Results

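The 10 genes described here encode vasoactive factors of endothelium: the nitric oxide synthase Nos3 with its regulators Cav1, Ddah1 and Ddah2, the peptide endothelin-1 (Edn1) with its converting enzyme Ece1, the angiotensin-converting enzyme Ace, and the peptide adrenomedullin (Adm) with its receptor parts Ramp2 and Calcrl. They were chosen by gene symbol, matched to the Ensembl identifiers of the count table through the GENCODE annotation of GRCm38. All 10 were found among 55385 gene identifiers, and all 10 passed the filter on low counts that left 17997 genes for testing. None of the 10 passed the test between the groups, and the differences stayed between a log2 fold change of -0.38 (Edn1) and 0.30 (Ddah1).

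Endothelial cells set the tone of the underlying smooth muscle. Nitric oxide made by Nos3 relaxes it, endothelin-1 constricts it, and Ace on the endothelial surface makes the constrictor angiotensin II and degrades the dilator bradykinin. Adrenomedullin dilates vessels and tightens the endothelial barrier through the receptor Calcrl, which binds it together with an accessory protein such as Ramp2. The lung capillary bed is known as a main site of angiotensin conversion.

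The libraries were made from sorted lung endothelial cells of mice 8 to 14 weeks old, all homozygous for a loxP-flanked allele of Tnfsf10, which encodes the death ligand TRAIL, and treated with tamoxifen at 1 mg per mouse and day for 5 or 10 days. Every animal was Tnfsf10 L/L. Controls were Cdh5.Cre W/W, without the transgene (n = 5). Those labelled EC-TRAIL KO were Cdh5.Cre Tg/W, with a tamoxifen-inducible Cre under the endothelial Cdh5 promoter (n = 5; below, the KO-labelled libraries). Transgene and deletion therefore cannot be told apart. The design text of the series names 4 transgenic animals where the labels name 5 libraries, and the labels tie no library to an animal. The p-values thus cover the spread among libraries, which may be technical. The comparison asks how lung endothelium differs when TRAIL is deleted there.

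Library totals were 34435835 to 56897822 (controls) and 29806083 to 34702571 expected counts (KO-labelled). Tnfsf10, the targeted gene, was at 333.9 ± 35.7 and 178.7 ± 89.7 CPM (counts per 1000000 of the TMM-scaled library total; SD, n = 5 each), and its log2 change of -0.90 did not pass (edgeR adjusted p = 0.425; -1.21 and 0.0345 without KO-labelled replicate 2). That library, although KO-labelled, lay within the control range of Tnfsf10, below the control median. Deletion of the allele was not tested here. Leaving that library out for its Tnfsf10 level had to strengthen the change, so the pass without it is no support. Tnfsf10 passed in 1 of 18 alternatives, and without KO-labelled replicate 5 it was at -0.72 (edgeR adjusted p = 0.328). The log2 fold change of each of the 10 genes, and of each pathway gene named by its difference, is given below with and without KO-labelled replicate 2. The endothelial marker list was present in every library, summing to 10610 to 12240 CPM over its 9 genes in controls and 10530 to 12350 CPM in the KO-labelled libraries. Alveolar epithelial markers were also present (7669 to 11640 and 6390 to 9246 CPM over 8 genes), as were smooth muscle and pericyte markers (326.2 to 443.7 and 256.3 to 414.1 CPM over 8 genes). Fibroblast markers summed to 383 to 501.5 and 307.6 to 520.5 CPM over 6 genes. Leukocyte markers summed to 1225 to 1867 and 1039 to 1534 CPM over 5 genes, mostly Lyz2 (means of 1404 and 1267 CPM). All 8 epithelial and 5 of 6 fibroblast markers had a log2 fold change below 0, and none passed. All 5 leukocyte markers tested and all 4 general capillary markers also lay below 0. Above 0 were 6 of 9 endothelial, 3 of 5 venous and 3 of 5 lymphatic markers. Of all genes tested, 9465 of 17997 lay below 0. The part of other cell types in the values of the 10 genes was not tested. In such bulk samples, fewer cells of a type and less RNA per cell cannot be told apart.

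Across all genes, 79 of 17997 (0.439%) were higher in the KO group and 0 (0%) were lower by edgeR's quasi-likelihood test at an adjusted p of 0.05. The 79 fell to 2 on leaving out any 1 control, or KO-labelled replicate 3 or 4, and rose to 154 without KO-labelled replicate 1. DESeq2 called 208 higher and 3 lower. Of the 10 vasoactive genes 0 passed with either tool. At an unadjusted p under 0.05, edgeR called 1 of the 10, Nos3, which was higher; 5.13% of all genes passed, 3.81% higher and 1.32% lower. None of the 10 had groups that did not overlap, while in 1.38% of all genes every KO-labelled library lay above every control and in 0.261% below. The median log2 fold change was -0.058 over the 10 genes and -0.0085 over all genes tested, and the median of the sizes was 0.11 and 0.093. Without KO-labelled replicate 2 the median over the 10 was -0.0061 and that over all genes -0.0063. Without control replicate 4 they were -0.0085 and -0.00975. With 4 of the 10 above 0 and 6 below, the genes had no common direction.

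**Figure D1:**
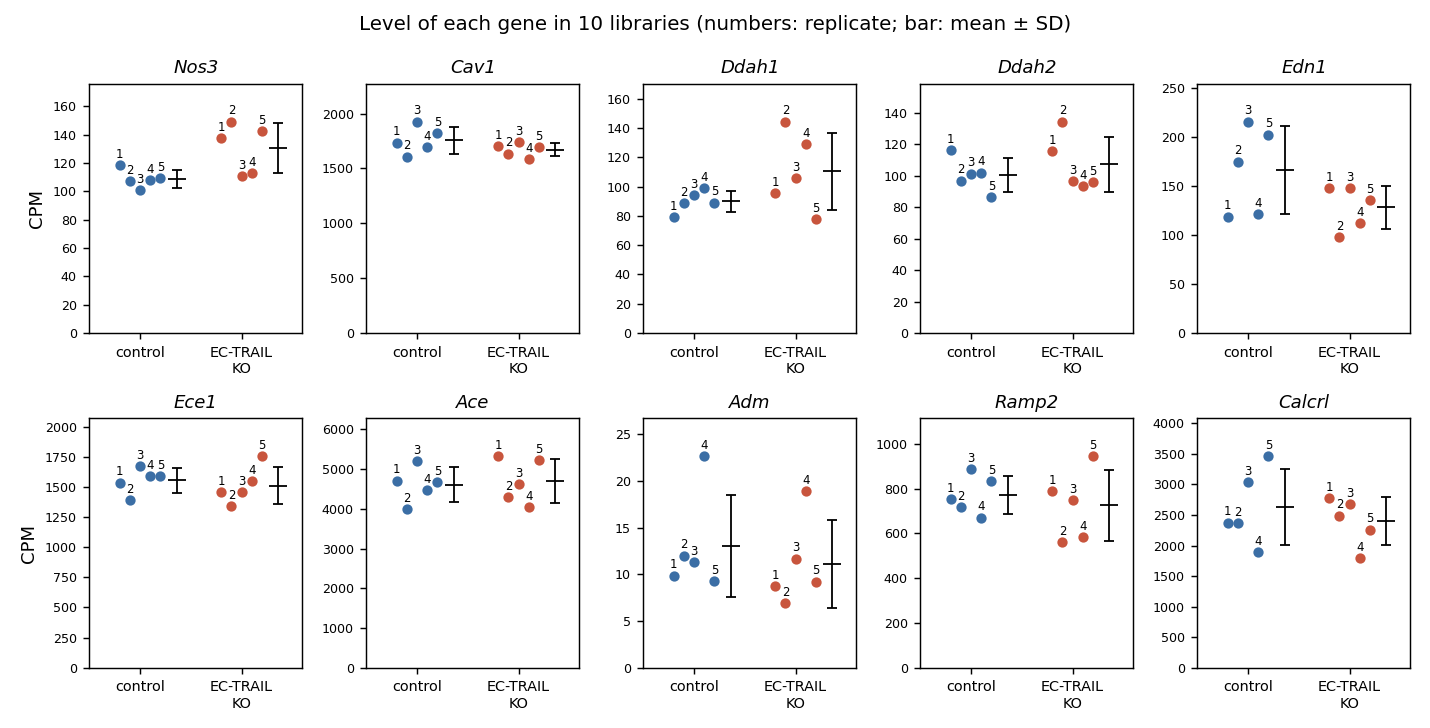
Level of each of the 10 genes in CPM (vertical axes start at 0, with a scale of their own) in the 5 control libraries (blue) and the 5 KO-labelled libraries (red). Numbers are replicate numbers and bars show the mean ± SD. The groups overlap in every panel, and the libraries numbered 4 stand highest for Adm in both groups.

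Levels between genes were compared per length, from the expected counts per kilobase of merged annotated exons, scaled to the same sum in each library (as in TPM). Ace was the most abundant of the 10 at 3234 ± 271.6 in controls and 3361 ± 459.6 in the KO-labelled libraries (SD, n = 5 each), and ranked the 21st among 55144 genes. Calcrl (1993 ± 433.8 in controls) and Cav1 (1893 ± 99.4) followed, with ranges that overlapped. Next came Ece1 (1088 ± 56.9) and Ramp2 (866.7 ± 83.8), then Edn1 (287.9 ± 73.2) and Ddah2 (234.3 ± 28.6). Nos3 (97.7 ± 7.15) and Ddah1 (83.8 ± 6.22) lay lower, and Adm was the lowest at 29.9 ± 12.7.

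Endothelial nitric oxide synthase mRNA was therefore far less abundant than the mRNA of caveolin-1, its inhibitory binding partner, and adrenomedullin far less than both parts of its receptor. Neighbours in that order whose control ranges overlapped were Calcrl and Cav1, Edn1 and Ddah2, and Nos3 and Ddah1. In the KO-labelled libraries the order was the same except that Ddah2 (254.9 ± 50.3) stood above Edn1 (226.1 ± 40.8), and there Ece1 and Ramp2 overlapped as well. The place of Ramp2 depends on the length used: its annotated span overlaps Vps25 on the same strand and its merged exons cover 3301 bases, against 1178 in its principal transcript. With the length of the longest principal transcript, Ramp2 was at 1792 in controls, the third after Ace (2571) and Cav1 (1907), and Calcrl was the fourth at 1471.

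**Figure D2:**
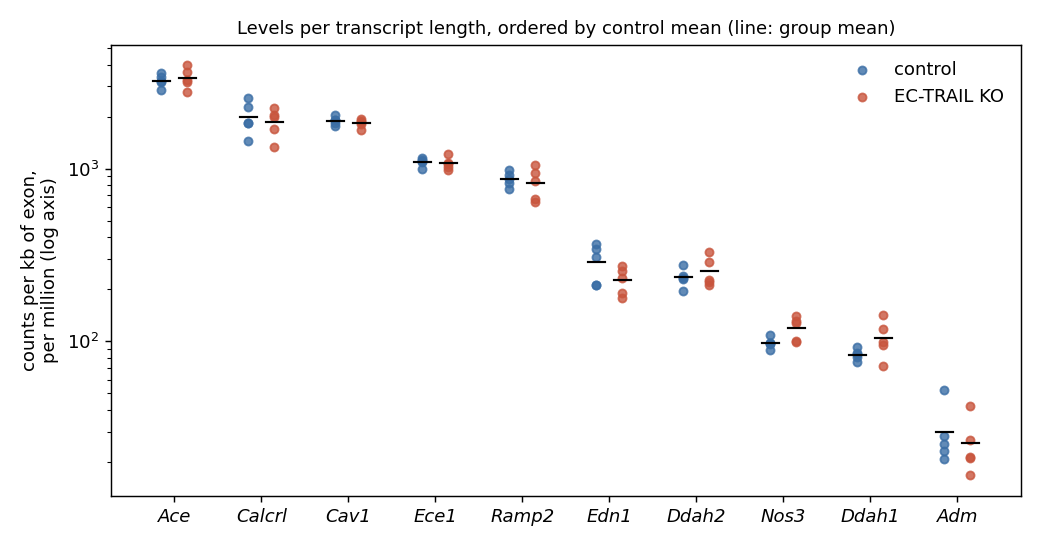
Expected counts per kilobase of merged exons, scaled as in TPM, on a log axis, for the 10 genes ordered by their control mean. Points are libraries (blue: control; red: KO-labelled) and black lines are group means. The genes span from 3234 (Ace) to 29.9 (Adm) in the control means.

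The promoters of the most and the least abundant of the 10, Ace and Adm, are shown to set their sequences beside these levels. Both are from RefSeq (GRCm38.p6), which held entries for 8 of the 10 genes, and cover the 250 bases before the annotated start, 5′ to 3′ on the plus strand, where both genes lie. Ace lies at chr11:105967698-105967947 and Adm at chr7:110627407-110627656. RefSeq held 2 windows for Ace; the one at the annotated gene start is shown, and the other, chr11:105974939-105975188 (GC content 58%), held none of the 4 motifs searched. Capitals mark matches on either strand to any of 4 motifs. The TATA box was searched as TATAAA, and the core of hypoxia-inducible factor sites as ACGTG. The AP-1 motif was searched as TGACTCA, and the motif of GATA factors as TGATAA. None of the 4 contains another.
Ace: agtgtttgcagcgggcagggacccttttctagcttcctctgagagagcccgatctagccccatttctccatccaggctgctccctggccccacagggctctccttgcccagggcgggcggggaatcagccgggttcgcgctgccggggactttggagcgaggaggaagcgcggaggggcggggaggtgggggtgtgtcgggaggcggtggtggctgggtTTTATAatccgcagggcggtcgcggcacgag
Adm: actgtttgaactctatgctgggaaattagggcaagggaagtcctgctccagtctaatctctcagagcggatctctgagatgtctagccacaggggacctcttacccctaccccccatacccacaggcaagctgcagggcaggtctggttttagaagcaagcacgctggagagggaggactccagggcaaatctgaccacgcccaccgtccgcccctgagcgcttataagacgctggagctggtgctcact
The Ace window shown held the TATA box motif once, on the reverse strand, beginning 31 bases before the start. The Adm window held no exact match to any of the 4 motifs. Near matches were not counted, such as tataag in the Adm window, which differs from TATAAA in its last letter. Over all 32851 RefSeq promoter windows of that length, 12.4% held the TATA box motif, 16.6% the hypoxia-inducible factor core, 4.46% the AP-1 motif and 7.94% the GATA factor motif. GC content was 67.2% in that Ace window and 56.8% in the Adm window. These matches describe the letters of the windows alone.

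Nos3, which makes nitric oxide from arginine (ENSMUSG00000028978, chromosome 5, 24364810 to 24384474, plus strand), was at 118.4, 107, 101, 107.7 and 109.2 CPM in control replicates 1 to 5. The KO-labelled libraries had 137.7, 149.2, 110.5, 112.8 and 142.4 CPM. Replicates 1, 2 and 5 of the latter lay above every control, and replicates 3 and 4 within the control range. Means over the 5 libraries of each group were 108.6 ± 6.30 and 130.5 ± 17.7 CPM (SD, n = 5 each), 1.2-fold with an unadjusted 95% interval of 1.05 to 1.38. The log2 fold change of 0.26 (SE 0.092) did not pass (edgeR adjusted p = 0.625), and without KO-labelled replicate 2 it was 0.21. Nos3 counts were not whole in any library, so part of its reads was divided with other genes. Its span overlaps Atg9b and the antisense gene Gm15587 on the opposite strand, and whether counting used strand is not given in the sources used here.

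Cav1 encodes caveolin-1, the coat protein of caveolae that binds and restrains Nos3 (ENSMUSG00000007655, chromosome 6, 17306335 to 17341452, plus strand). It had 1735, 1608, 1926, 1697 and 1819 CPM in controls and 1700, 1636, 1742, 1584 and 1692 CPM in the KO-labelled libraries. The second set lay in the lower part of the control range, with replicate 4 just below it. With a log2 fold change of -0.073 (SE 0.072 and edgeR adjusted p = 0.997), it had an unadjusted 95% interval of the fold from 0.854 to 1.06. Without replicate 2 the log2 value was -0.066. Cav1 was the least variable of the 10 genes among the KO-labelled libraries, with a coefficient of variation of 3.69%.

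Ddah1 degrades asymmetric dimethylarginine, a methylated arginine that inhibits nitric oxide synthases, and Ddah2 belongs to the same gene family. Ddah1 (ENSMUSG00000028194, chromosome 3, 145758675 to 145894277, plus strand) had 79.2, 88.6, 93.9, 98.8 and 89 CPM in controls. The KO-labelled libraries had 95.8, 144.3, 105.6, 128.8 and 77.9 CPM. Replicates 2, 3 and 4 of these lay above every control and replicate 5 below every control, so the group spread out on both sides, with a coefficient of variation of 23.9% against 8.10% in controls. The log2 fold change of 0.30 (SE 0.142 and edgeR adjusted p = 0.997) was 0.18 without replicate 2, and the unadjusted 95% interval of the fold was 0.992 to 1.52.

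Ddah2 (ENSMUSG00000007039, chromosome 17, 35059035 to 35062095, plus strand) had 116.1, 96.8, 101.2, 101.8 and 86.2 CPM in controls and 115.6, 134.2, 96.6, 93.2 and 95.8 CPM in the KO-labelled libraries. Only replicate 2 of the latter lay above the control range. Its log2 fold change of 0.093 (SE 0.111 and edgeR adjusted p = 0.997; unadjusted 95% interval of the fold 0.902 to 1.26) was -0.0018 without that replicate. Per length, the ratio of Ddah1 to Ddah2 ran from 0.273 to 0.413 in controls and from 0.325 to 0.553 in the KO-labelled libraries, so Ddah2 was the more abundant of the pair in all 10 libraries.

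**Figure D3:**
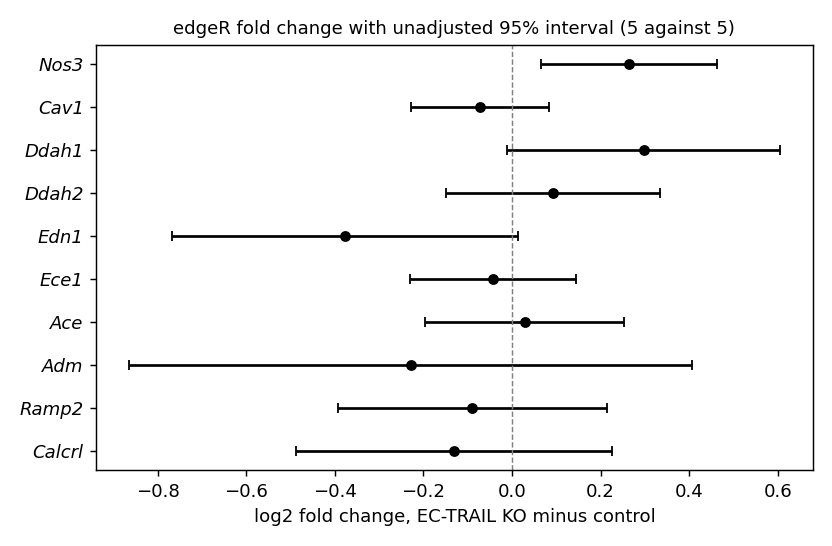
Log2 fold change of each of the 10 genes (horizontal axis, EC-TRAIL KO minus control, edgeR) with its unadjusted 95% interval, 5 against 5 libraries. The dashed line marks no difference. The interval lies above 0 for Nos3 alone, whose adjusted p was 0.625, and spans 0 for the other 9 genes, most widely for Adm.

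Edn1, the precursor gene of the constrictor endothelin-1 (ENSMUSG00000021367, chromosome 13, 42301476 to 42307990, plus strand), had the log2 fold change farthest from 0. Controls had 118.7, 174.7, 215.3, 121.3 and 202.1 CPM, and the KO-labelled libraries 147.6, 98.0, 147.4, 112 and 135.3 CPM. Replicates 2, 3 and 5 of the controls lay above all 5 of the other group, whose replicates 2 and 4 lay below every control. Replicates 1 and 4 of the controls stood between these and KO-labelled replicates 1, 3 and 5. Means over the 5 libraries of each group were 166.4 ± 44.9 and 128.1 ± 22.2 CPM (SD, n = 5 each), giving a fold of 0.770 with an unadjusted 95% interval of 0.587 to 1.01. The log2 fold change of -0.38 (SE 0.180) did not pass (edgeR adjusted p = 0.997), and without KO-labelled replicate 2 it was -0.29.

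Ece1, the protease that cleaves the endothelin precursor to the active peptide (ENSMUSG00000057530, chromosome 4, 137862237 to 137965229, plus strand), varied little. It had 1535, 1391, 1669, 1588 and 1588 CPM in controls and 1454, 1337, 1458, 1546 and 1752 CPM in the KO-labelled libraries. Replicate 5 of the latter was the highest of all 10 libraries and replicate 2 the lowest. Its log2 fold change was -0.042 (SE 0.086; edgeR adjusted p = 0.997), and -0.0018 without replicate 2. The unadjusted 95% interval of the fold was 0.853 to 1.11. Per length, Ece1 exceeded Edn1 by 3.13 to 5.28 times in controls and 3.98 to 5.57 times in the KO-labelled libraries.

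Ace, the peptidase that makes angiotensin II (ENSMUSG00000020681, chromosome 11, 105967945 to 105989964, plus strand), had 4710, 3986, 5211, 4474 and 4666 CPM in controls. The KO-labelled libraries had 5321, 4287, 4628, 4041 and 5226 CPM. Replicates 1 and 5 of these lay just above the control range and the other 3 within it. The log2 fold change was 0.028 (SE 0.103; edgeR adjusted p = 0.997), with an unadjusted 95% interval of the fold from 0.873 to 1.19, and it was 0.060 without replicate 2. Its counts were not whole in any library, and the antisense gene Gm11651 overlaps it.

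Adm, which encodes the dilator adrenomedullin (ENSMUSG00000030790, chromosome 7, 110627661 to 110629820, plus strand), was the most variable of the 10 in both groups. Controls had 9.88, 12.0, 11.3, 22.6 and 9.32 CPM, and the KO-labelled libraries 8.75, 6.97, 11.7, 18.9 and 9.23 CPM. The library numbered 4 was the highest in each group, and the other 8 libraries lay between 6.97 and 12.0 CPM. These values rest on 210 to 1044 expected counts per library. Means over the 5 libraries of each group were 13.0 ± 5.48 and 11.1 ± 4.69 CPM (SD, n = 5 each), and the log2 fold change of -0.23 (SE 0.293) did not pass (edgeR adjusted p = 0.997). It was 0.064 without control replicate 4, -0.51 without KO-labelled replicate 4, -0.21 without both and -0.10 without KO-labelled replicate 2. The unadjusted 95% interval of the fold ran from 0.549 to 1.33, and the direction turns with control replicate 4 alone.

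Calcrl, the receptor that binds adrenomedullin (ENSMUSG00000059588, chromosome 2, 84330626 to 84425411, minus strand), had 2376, 2365, 3043, 1896 and 3458 CPM in controls. The KO-labelled libraries had 2777, 2489, 2679, 1795 and 2259 CPM. Replicate 4 was the lowest of each group, where Adm was highest. Between the groups the log2 fold change was -0.13 (SE 0.164; edgeR adjusted p = 0.997), and -0.14 without replicate 2. Leaving out control replicate 5 brought it to -0.013 and leaving out KO-labelled replicate 4 to -0.043. The unadjusted 95% interval of the fold was 0.713 to 1.17.

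Ramp2, an accessory protein that makes Calcrl an adrenomedullin receptor (ENSMUSG00000001240, chromosome 11, 101246028 to 101259546, plus strand), had 752.3, 717.3, 885.5, 670.4 and 832 CPM in controls. The KO-labelled libraries had 788.7, 561, 749.5, 582.2 and 943.8 CPM. Replicates 2 and 4 of these lay below every control and replicate 5 above every control. Its log2 fold change of -0.090 (SE 0.139 and edgeR adjusted p = 0.997; unadjusted 95% interval of the fold 0.762 to 1.16) was -0.010 without replicate 2 and -0.20 without replicate 5. Ramp2 counts were not whole in any library, and the part of reads shared with Vps25 was not tested. The ratio of Calcrl to Ramp2 per length ran from 1.91 to 2.81 in controls and from 1.62 to 3 in the KO-labelled libraries. With principal transcript lengths the order of the pair turned, with Calcrl at 1471 and Ramp2 at 1792 in controls, and 1364 and 1702 in the KO-labelled libraries.

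The 10 genes fell into steady and variable ones among controls, a split that the KO-labelled libraries did not keep. The latter had coefficients of variation of 23.9% for Ddah1 and 21.8% for Ramp2, against 17.3% for Edn1 and 16.3% for Calcrl. Among controls the coefficient of variation was at most 11.3% for Nos3, Cav1, Ddah1, Ddah2, Ece1, Ace and Ramp2, 23.5% for Calcrl, 27.0% for Edn1 and 42.0% for Adm. The KO-labelled libraries had the larger coefficient for Nos3 (13.6% against 5.80%), Ddah1, Ddah2, Ece1, Ace and Ramp2, and the smaller one for Cav1, Edn1 and Calcrl, while Adm had 42.2%. The KO-labelled library, replicate 2 was the highest of all 10 for Nos3, Ddah1 and Ddah2, and the lowest for Edn1, Ece1, Adm and Ramp2.

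**Figure D4:**
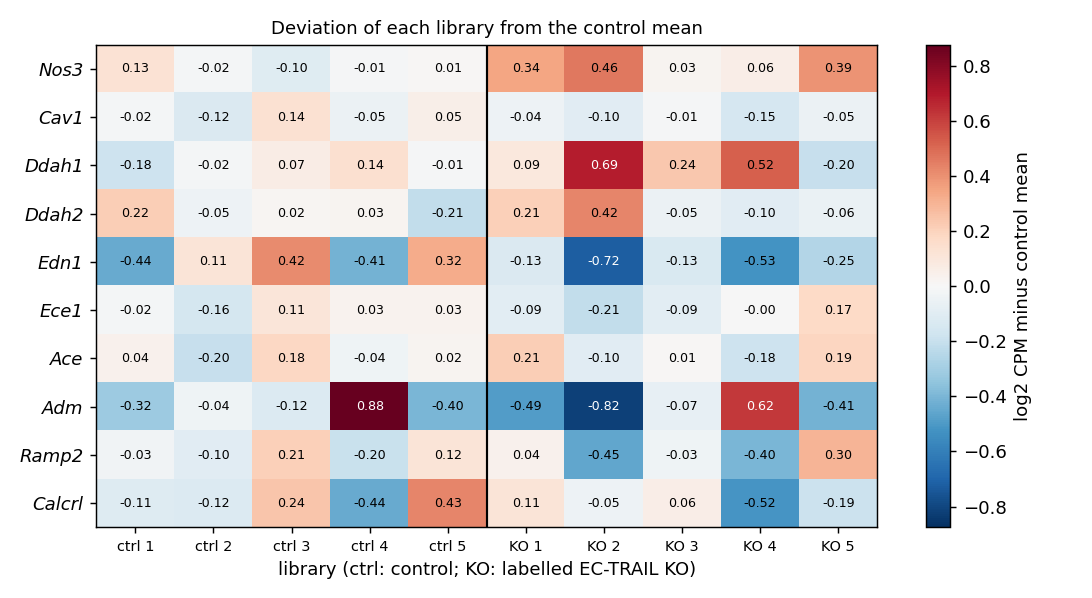
Log2 CPM of each gene (rows) in each library (columns; ctrl, control; KO, KO-labelled) minus the control mean of that gene; red is above and blue below that mean. Adm ranges from -0.82 in KO 2 to 0.88 in ctrl 4, while Cav1 stays between -0.15 and 0.14.

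To place each gene among the others, Pearson's r of log2 CPM over the 10 libraries was computed against 9527 other genes with a mean of at least 10 CPM. The 10 libraries come from both groups, so r also holds the difference between the groups. The highest of so many correlations is large by selection, so these values are a description. The genes nearest to Nos3 were Atp2b4 (r = 0.965), Pld2 (r = 0.944) and Sh3gl1 (r = 0.932). Edn1 was nearest to Arsk (r = 0.972), D2hgdh (r = 0.935) and Nbn (r = 0.934). Adm was nearest to Ccn1 (r = 0.972), a matricellular early response gene, Chd2 (r = 0.954) and Pdcd7 (r = 0.952). Ddah1 was nearest to Il2rg (r = 0.975), the replication licensing gene Mcm2 (r = 0.954) and the cyclin gene Ccnd1 (r = 0.952), and Ddah2 to Mtss1l (r = 0.982), Tbc1d2b (r = 0.965) and Eme2 (r = 0.959). For Ece1 they were Epas1 (r = 0.972), which encodes a hypoxia-inducible factor subunit, Clip1 and Gstm1 (r = 0.943 each). Cav1 was nearest to Cnot4 (r = 0.946), Tjp1 (r = 0.928) and R3hcc1l (r = 0.915), and Ace to Zfp646 (r = 0.941), Dst (r = 0.903) and Ep300 (r = 0.883). For Ramp2, Upf2 (r = 0.958) and Sun1 (r = 0.951) were among the nearest, and Calcrl was nearest to Prkaa1 (r = 0.980), Etnk1 (r = 0.972) and Slc30a7 (r = 0.961). No gene was named for more than 1 of the 10.

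The other genes of these pathways were taken as 4 lists of 72 genes, of which 58 were tested. None of the 58 passed in either direction by edgeR (smallest adjusted p = 0.687) or DESeq2. At an unadjusted p under 0.05 edgeR called 5 of the 58, and 923 of all 17997 genes (5.13%). Of the 5, 4 were among the 32 tested on the nitric oxide list and 1 among the 9 on the adrenomedullin and calcitonin list. The median log2 fold change of the 58 was -0.015, with 27 above 0 and 31 below. Medians of the 4 lists, given in turn below, were 0.010 (nitric oxide), -0.18 (endothelin), -0.040 (angiotensin and kinin) and 0.032 (adrenomedullin and calcitonin) without KO-labelled replicate 2. The 14 untested genes had at most 25 expected counts in any library and include the peptide genes Edn2, Adm2, Calca and Calcb, angiotensinogen (Agt) and renin (Ren1).

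On the nitric oxide list 32 of 34 genes were tested, with a median log2 fold change of -0.012, 15 above 0 and 17 below. Cavin2, a caveolar coat gene, had control and KO-labelled means of 1240 ± 147.4 and 1287 ± 69.4 CPM (SD, n = 5 each), and Hsp90ab1, a chaperone of Nos3, at 993.4 ± 153.5 and 992.1 ± 109 CPM. Slc7a1, the transporter that imports arginine, had a log2 fold change of 0.42 (SE 0.156 and edgeR adjusted p = 0.737; 0.335 without KO-labelled replicate 2), with 29.5 to 36.3 CPM in controls and 30.9 to 57.4 CPM in the other group.

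The soluble guanylate cyclase genes Gucy1a1 and Gucy1b1, the receptor of nitric oxide in smooth muscle and pericytes, and Pde5a, which degrades its product cyclic GMP, were named after their values were seen. Their log2 fold changes were -0.34 (SE 0.165), -0.33 (SE 0.152) and -0.28 (SE 0.145), with edgeR adjusted p of 0.997, 0.974 and 0.997. Without KO-labelled replicate 2 they were -0.24, -0.23 and -0.21. Control and KO-labelled means of Gucy1a1 were 169.9 ± 21.5 and 134.5 ± 35.95 CPM (SD, n = 5 each), with replicates 1 and 2 of the latter below every control and replicates 3, 4 and 5 within the control range. The mural cell markers Pdgfrb and Notch3 had -0.24 and -0.22, while Myh11 had -0.067 and Acta2 0.023 (edgeR adjusted p = 0.997 for all 4). The rest of the list had -0.037 (Cspg4), -0.12 (Cnn1), 0.036 (Tagln) and 0.13 (Kcnj8), each with an edgeR adjusted p of 0.997. In the full list of 8 such markers 0 passed, 5 lay below 0 and none was at 0 counts over a group, with Cnn1 the lowest at 0.521 and 0.483 CPM. The part of mural cells in these 3 values was not tested.

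**Figure D5:**
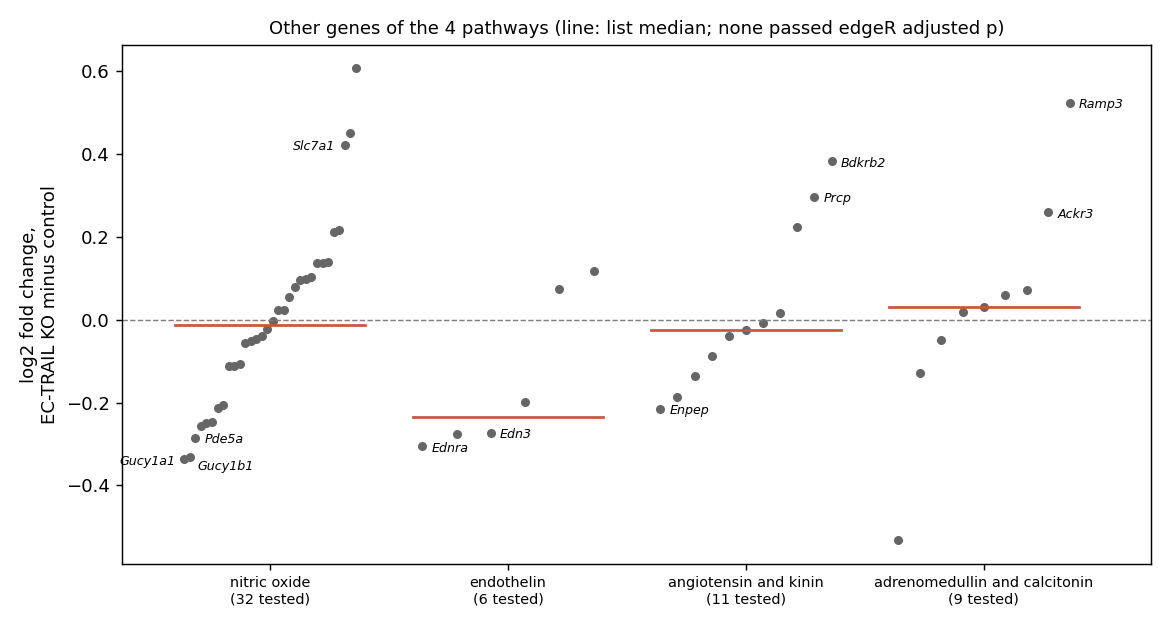
Log2 fold change (vertical axis, EC-TRAIL KO minus control, edgeR) of the 58 tested genes of the 4 pathway lists, sorted within each list; red lines are list medians. Names mark genes given in the text whose size exceeds 0.2; no gene passed, and the medians are -0.012, -0.24, -0.026 and 0.032 from left to right.

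On the endothelin list 6 of 8 genes were tested, with a median of -0.24, 2 above 0 and 4 below. Ednrb, the endothelin B receptor that marks lung aerocyte capillaries, was at 293.7 ± 42.5 and 256.1 ± 48.7 CPM (SD, n = 5 each), with a log2 fold change of -0.20 (-0.19 without KO-labelled replicate 2, -0.125 without control replicate 1 and -0.13 without KO-labelled replicate 4). The smooth muscle receptor Ednra was at 38.3 ± 5.56 and 31.0 ± 7.05 CPM (-0.31), and the peptide gene Edn3 at 12.4 ± 1.64 and 10.2 ± 1.84 CPM (-0.27). KO-labelled replicate 2 was the lowest library for both, and without it the values were -0.195 for Ednra and -0.18 for Edn3. Furin, the convertase that makes the first cut of the endothelin precursor, had 0.074, and 0.064 without that library. None of these 4 passed (edgeR adjusted p = 0.997 for each). The 5 aerocyte markers, Ednrb among them, had a median of -0.072.

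On the angiotensin and kinin list 11 of 18 genes were tested, with a median of -0.026. Bdkrb2, the bradykinin B2 receptor, had a log2 fold change of 0.38, with 17.5 to 50.7 CPM in the KO-labelled libraries around a control range of 21.6 to 30.5 CPM. This value was 0.19 without KO-labelled replicate 2 and 0.55 without replicate 5. Prcp, a carboxypeptidase that cleaves angiotensin II, had 0.30, and 0.064 without KO-labelled replicate 2, which was at 161.3 CPM against 65.02 to 96.4 CPM in the other 4. The angiotensin-cleaving aminopeptidases Enpep and Lnpep had -0.21 and -0.14 (edgeR adjusted p = 0.997 for all 4). Enpep was at -0.12 without KO-labelled replicate 2 and -0.13 without control replicate 2. Lnpep kept -0.14 without the former, while without control replicate 5 it was at -0.050 and without KO-labelled replicate 4 at -0.090.

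On the adrenomedullin and calcitonin list 9 of 12 genes were tested, with a median of 0.032. Ramp3, the other accessory protein for adrenomedullin receptors, spanned 6.68 to 11.2 CPM (controls) and 7.85 to 15.9 CPM (KO-labelled). Its log2 fold change was 0.52 (SE 0.188 and edgeR adjusted p = 0.687), and 0.55 without KO-labelled replicate 2. Without KO-labelled replicate 4, its highest library, it was 0.399, and 0.385 without both libraries numbered 4. Ackr3, an atypical receptor that also binds adrenomedullin, was at 183.3 ± 4.56 and 219.3 ± 50.2 CPM (SD, n = 5 each), with a log2 fold change of 0.26 (edgeR adjusted p = 0.997). Its highest library was KO-labelled replicate 4 at 296.3 CPM, and without it the value was 0.13, against 0.25 without KO-labelled replicate 2. Gnas and Adcy4, which carry the receptor signal to cyclic AMP, had 0.071 and 0.032 (edgeR adjusted p = 0.997 for both), and 0.058 and 0.065 without KO-labelled replicate 2. Leaving out KO-labelled replicate 4 brought Gnas to 0.035, and leaving out KO-labelled replicate 1 brought Adcy4 to -0.038.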

How the data were processed

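The authors deposited 1 table of expected counts per gene for 10 libraries, estimated with RSEM 1.2.28 after STAR 2.7.1a on GRCm38, per the submitters' processing notes; 81.2% of values were whole. The sources used here do not give the authors' annotation release or whether counting used strand. Columns were matched to samples by title. GENCODE M21 gave symbols and positions for 55144 of 55385 identifiers. Expected counts were rounded and tested in R 4.3.3 with edgeR 4.0.16 (filterByExpr with a minimum count of 10, TMM, quasi-likelihood F-test, group as the only term, Benjamini-Hochberg over 17997 genes, threshold 0.05). SE is the log2 fold change divided by the square root of F, and 95% intervals are not adjusted. Log2 CPM used a prior count of 2. The test was checked on simulated counts. Alternatives used limma 3.58.1 and DESeq2 1.42.0. Named genes are the 10, each passing pathway gene, the 2 most abundant and the 2 with the smallest p of each list, and the 3 most similar genes, some of which are not reported here; Gucy1a1, Gucy1b1, Pde5a, the markers and genes outside this rule were chosen after seeing values. The members and lists were chosen with earlier results of these data known.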

Additional observations from a re-analysis of the deposited data

Results flagged for a closer look

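In 58 groups of 5 libraries (29 genes in 2 groups), 3 libraries stood apart from the others of their group by Dixon's criterion, which chance meets in about 1 of 20 groups. Adm in control replicate 4 was at 22.64 CPM, where the next control was at 12.01 CPM. Furin in replicate 3 labelled EC-TRAIL KO was at 153.5 CPM, below the next library at 175.7 CPM. Lnpep in control replicate 5 was at 211.7 CPM, above the next control at 171.1 CPM.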

How the results depend on the processing

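In 18 alternatives none of the 10 genes and none of the pathway genes passed. The direction of Nos3, Cav1, Ddah1, Edn1, Ece1, Ramp2 and Calcrl held in all 18. Of 180 values for the 10 genes 5 turned sign, each on leaving out 1 library: over such settings Ace ran from -0.0203 to 0.078, Adm from -0.508 to 0.0643 and Ddah2 from -0.00184 to 0.15. Adcy4 ran from -0.0385 to 0.0652 and Hsp90ab1 from -0.0739 to 0.0587; Hsp90ab1 was also 0.00172 with library size only, 0.00435 with limma-voom and 0.00557 with the replicate block. The count of all genes called higher was 79, but 2 with library size only or limma-voom, 208 with DESeq2, 141 with no low-count filter, 146 with the replicate block and 2 to 154 without 1 library. It was 1 without both libraries numbered 4, a setting chosen after seeing the data. Genes called lower numbered 3 with DESeq2, 2 with no low-count filter, 3 with the replicate block and 0 to 1 without 1 library. The cause was not tested. The main test did not take the replicate numbers as pairs. Deviations of same-numbered libraries nevertheless correlated at 0.227, 0.0679, 0.21, 0.433 and 0.114, and 4 of 5 controls matched their own number best. Whether they share a batch was not tested. With the block, the edgeR adjusted p was 0.24 for Nos3 and at least 0.513 for the other 9. It was 0.0513 for Tnfsf10, 0.143 for Ramp3, 0.204 for Gucy1b1, 0.215 for Gucy1a1, 0.232 for Slc7a1, 0.238 for Pde5a and 0.243 for Ednrb. The block changed the SE of Adm from 0.293 to 0.12 and that of Ednrb from 0.134 to 0.0571. That of Enpep went from 0.131 to 0.142. With principal transcript lengths, control levels per length were 2571 for Ace, 1471 for Calcrl, 883.5 for Ece1, 1792 for Ramp2, 212.5 for Edn1, 205.1 for Ddah2, 72.07 for Nos3 and 65.4 for Ddah1, a length chosen after seeing the data.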
